A study of Mus musculus with 36 samples.

Results

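Cytochromes P450 of families 1 to 3 are the heme enzymes of the liver's smooth endoplasmic reticulum that oxidise drugs, pollutants and other foreign compounds, and many also act on steroids, arachidonic acid, bile acids or vitamin D. They were followed here in mouse liver as the genes whose array name begins with Cyp, a family number of 1, 2 or 3, a subfamily letter and a gene number, without the Cyp2b subfamily. By this rule 55 of the 37074 genes named on the array were members, and each was read from its probe with the highest mean log2 signal over the 36 arrays. Of the 55, 52 had that probe well above background on at least 5 of 6 arrays of at least 1 group and were tested with the 24101 genes that passed the same filter. A dim gene could pass through the one group in which it was bright, so the 52 are not all members. Cyp2c39, Cyp2j11 and Cyp3a44 did not pass: their probes were well above background on at most 2, 3 and 1 of the 6 arrays of any group, and no level or fold is given for them. The Cyp2c subfamily was the largest, with 16 members of which 15 were tested, followed by Cyp2d (10, all tested), Cyp3a (8, of which 7 tested), Cyp2j (6, of which 5 tested) and Cyp2a (4, all tested).

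The study measured liver RNA of male C57Bl/6J mice that lacked ATGL, the main triglyceride lipase of fat cells, in white adipose tissue (labelled AAKO) and of controls (labelled CTRL). Each genotype was kept under 3 conditions with 6 mice per group: fed ad libitum, fasted (for 24 h in the study's design text), or given a single 3 mg/kg dose of CL316243, an agonist of the β3-adrenergic receptor that drives lipolysis in fat cells. By their sample titles the mice given CL316243 were fed. CL316243 went in by gavage at ZT10 (hours after lights on) in carboxymethyl cellulose, and the labels describe no vehicle gavage for the other groups. All mice were kept on 1 standard diet and were killed at ZT16, in the dark phase. The labels name no Cre line or promoter and no age, and the liver carries no designed deletion, so the genotype label cannot be checked in these arrays. By the labels, experiment 2 supplied the fed mice and experiment 1 all others, so that in any contrast with fed mice the condition and the experiment cannot be told apart. An effect of experiment common to both genotypes cancels in the genotype contrasts and in the interactions.

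Each array was hybridised with one mouse's Cy3-labelled RNA, and their number, 6 per group, limits the precision. Between 60.3% and 67.2% of spots per array were well above background, no spot was saturated, and replicate arrays correlated at 0.981 to 0.991 over genes. All 8 hepatocyte markers were well above background on every array. The library of the fasted CTRL mouse with replicate number 2 stood apart on the first principal component (80.9, against 16.7 for the lowest of its group). Counts of called members in contrasts with fasted CTRL mice are given with and without it. So are the fasted genotype differences of Cyp2d13 and Cyp2d37-ps. Other values of single members include it unless stated. Each value is a log2 signal less that array's 75th percentile, so that 0 is the brightness of that percentile, and levels are compared between groups of one probe and never between probes. Changes are log2 differences ± SE from limma with wash batch in the model, called at a Benjamini-Hochberg adjusted p under 0.05 over all 24101 genes. In whole liver, fewer hepatocytes and less RNA per hepatocyte cannot be told apart.

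Xenobiotic P450 genes answer to a small set of ligand-activated factors: AHR drives the family 1 genes, CAR and PXR the Cyp2b, Cyp2c and Cyp3a genes, while HNF4A sets basal transcription in hepatocytes and growth hormone sets the male and female patterns of many Cyp2 and Cyp3a genes. Most of the enzymes are made in the hepatocytes around the central vein, with Cyp2f2 on the portal side. All of them take electrons from the reductase POR and need newly made heme.

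The members sit in clusters of young gene copies, and some of their probes cannot separate neighbours. All 72 member probes are 60 bases long, and the chosen probes of 10 members list transcripts of more than 1 gene in the file. The Cyp3a11 probe is annotated to Cyp3a41a, Cyp3a41b and Cyp3a44 as well, and it spans an exon junction at chr5:146672058-146673925 (mm9, minus strand). It is shown whole because the Cyp3a results turn on it:
Cyp3a11: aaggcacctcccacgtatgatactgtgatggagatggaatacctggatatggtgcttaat
The Cyp3a25 and Cyp3a57 probes, at chr5:146789175-146789234 and chr5:146151322-146151381, share a run of 29 bases, set in capitals in the 30-base windows below, and match at 49 of 60 bases:
Cyp3a25: TTGTGTCAAGAGATAAACCCAGAACTGGAt
Cyp3a57: TTGTGTCAAGAGATAAACCCAGAACTGGAc
In the same way the probes of Cyp2c67 (chr19:39683429-39683488) and Cyp2c68 (chr19:39763420-39763479) share a run of 25 bases and match at 55 of 60:
Cyp2c67: gaAATTCCATCTATATTCCTTCTTATCcca
Cyp2c68: ggAATTCCATCTATATTCCTTCTTATCaca
Over the 36 arrays the Cyp3a25 and Cyp3a57 readings correlated at 0.995 and the Cyp2c67 and Cyp2c68 readings at 0.979, so each pair is counted as 2 members but may hold 1 signal. The files give probe positions in mm9, and the exon or UTR under each probe is not given here.

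The heat map of the members over the 36 arrays shows the broad pattern: blocks of Cyp2c, Cyp2d, Cyp2j and Cyp3a genes differ with fasting, and within fasted mice with genotype.

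**Figure D1:**
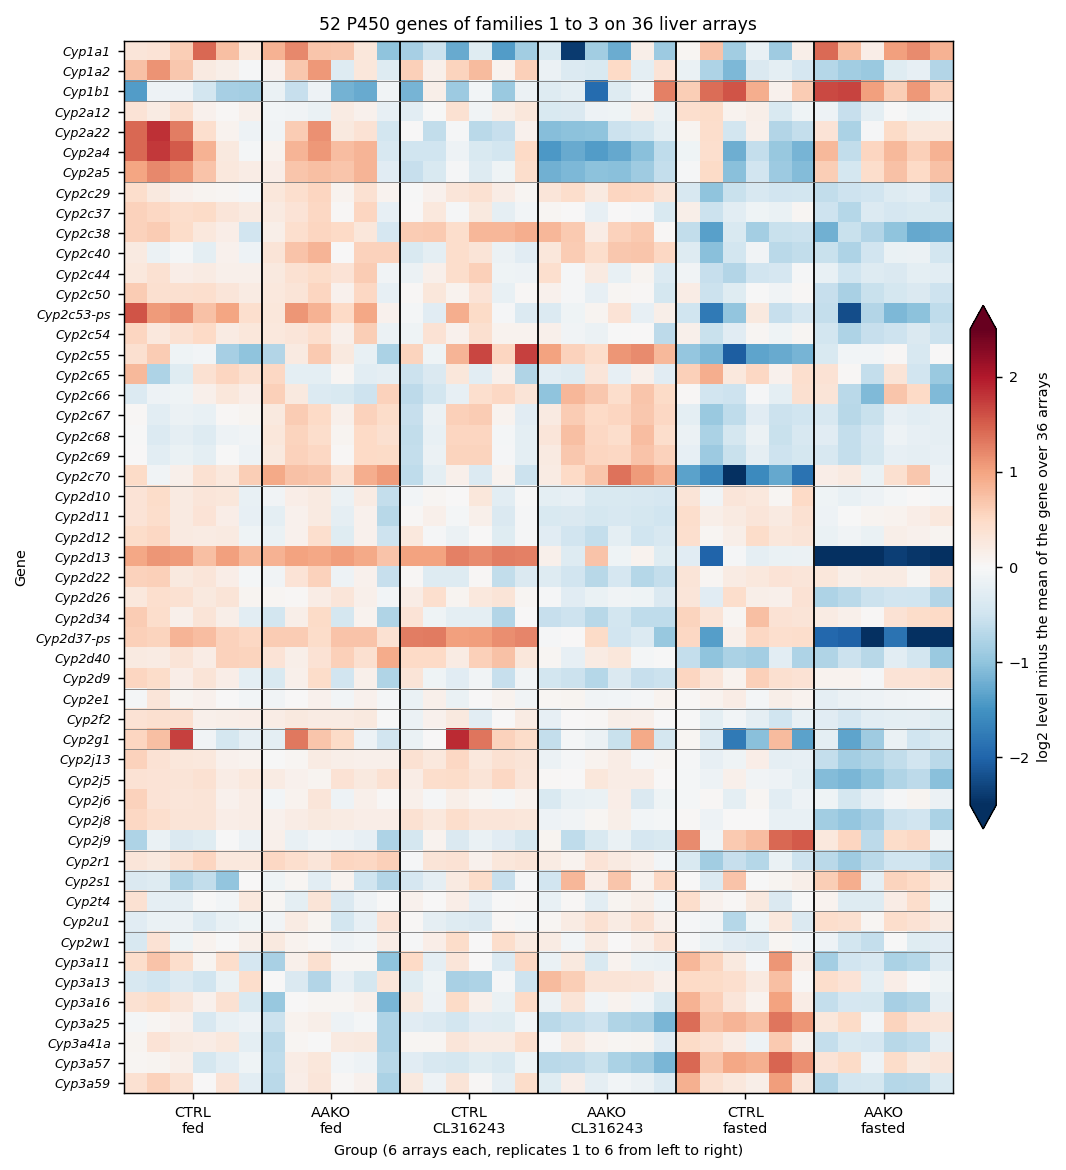
Log2 signal of the 52 tested members (one per line, ordered by subfamily) on the 36 arrays (columns, by group), each gene centred on its mean over the arrays, with colours from -2.5 to 2.5. The fasted columns differ most from the fed ones, and Cyp2d13, Cyp2d37-ps and Cyp2c70 show the strongest contrasts between genotypes.

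In fed mice no member differed between genotypes at the threshold (0 of 52 called by limma, 18 at an unadjusted p under 0.05, against 1638 of all 24101 genes). Of all genes 0.0788% were called there, 0.0415% higher and 0.0373% lower, and the members' median difference was -0.10 against 0.00 over all genes. Cyp2c67, Cyp2c68 and Cyp2c69 were higher in every fed AAKO mouse than in every fed CTRL mouse, at 0.50, 0.56 and 0.52, but their adjusted p-values of 0.335, 0.198 and 0.303 missed the threshold, and cross-reading of their probes makes them less than 3 independent readings. 0 of 52 were called within either wash batch too, but the fewer arrays there make a call harder to reach, so this adds no support.

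In fasted mice 27 of 52 members (51.9%) differed between genotypes, 6 higher and 21 lower in AAKO, while 49.3% of all genes were called, 21.3% higher and 28.1% lower. The share called was thus close to that of all genes, with more of it on the lower side, and the members' median difference was -0.16 against -0.04. Lower in AAKO were 6 of 7 Cyp3a, 5 of 10 Cyp2d and 4 of 5 Cyp2j members. Leaving out a single mouse lost 4 of the 27 calls in at least 1 fit, those of Cyp2a12, Cyp2c37, Cyp2d10 and Cyp2d12. Of 15 Cyp2c members 4 were lower and 2 higher, and of 4 Cyp2a members 1 was lower and 2 higher. Cyp2c65, counted among the lower Cyp2c members and the 21, passed the filter only through the fasted CTRL group, so its call carries no independent weight. Cyp2u1, counted among the 6 higher, read lower by its other probes, so its direction is not settled. The probes of Cyp3a11, Cyp3a25 and Cyp3a41a list more than 1 gene, so the 6 Cyp3a calls may not be independent readings. Without the fasted CTRL replicate 2, 28 were called, 6 higher and 22 lower. Within wash batch 1 the count was 22 (4 higher, 18 lower) and within wash batch 2 it was 15 (3 higher, 12 lower).

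After CL316243 21 members (40.4%) differed between genotypes, 7 higher and 14 lower in AAKO, against 24.8% of all genes, 13.5% higher and 11.3% lower. Cyp2u1, whose probes disagree in fasted mice, was among the 7 higher. The median was -0.22 for the members and 0.03 for all genes. Here 7 of 10 Cyp2d, 3 of 5 Cyp2j and 2 of 4 Cyp2a members were lower, and 5 of 15 Cyp2c members were higher. Leaving out a single mouse lost 8 of the 21 calls in at least 1 fit, those of Cyp2j5 and Cyp3a57 among them. Within each wash batch, with fewer arrays, the count was lower. It was 9 members (1 higher, 8 lower) within batch 1 and 1 (higher) within batch 2, which holds 2 of the 6 AAKO mice given CL316243. The cause of this drop was not tested.

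**Figure D2:**
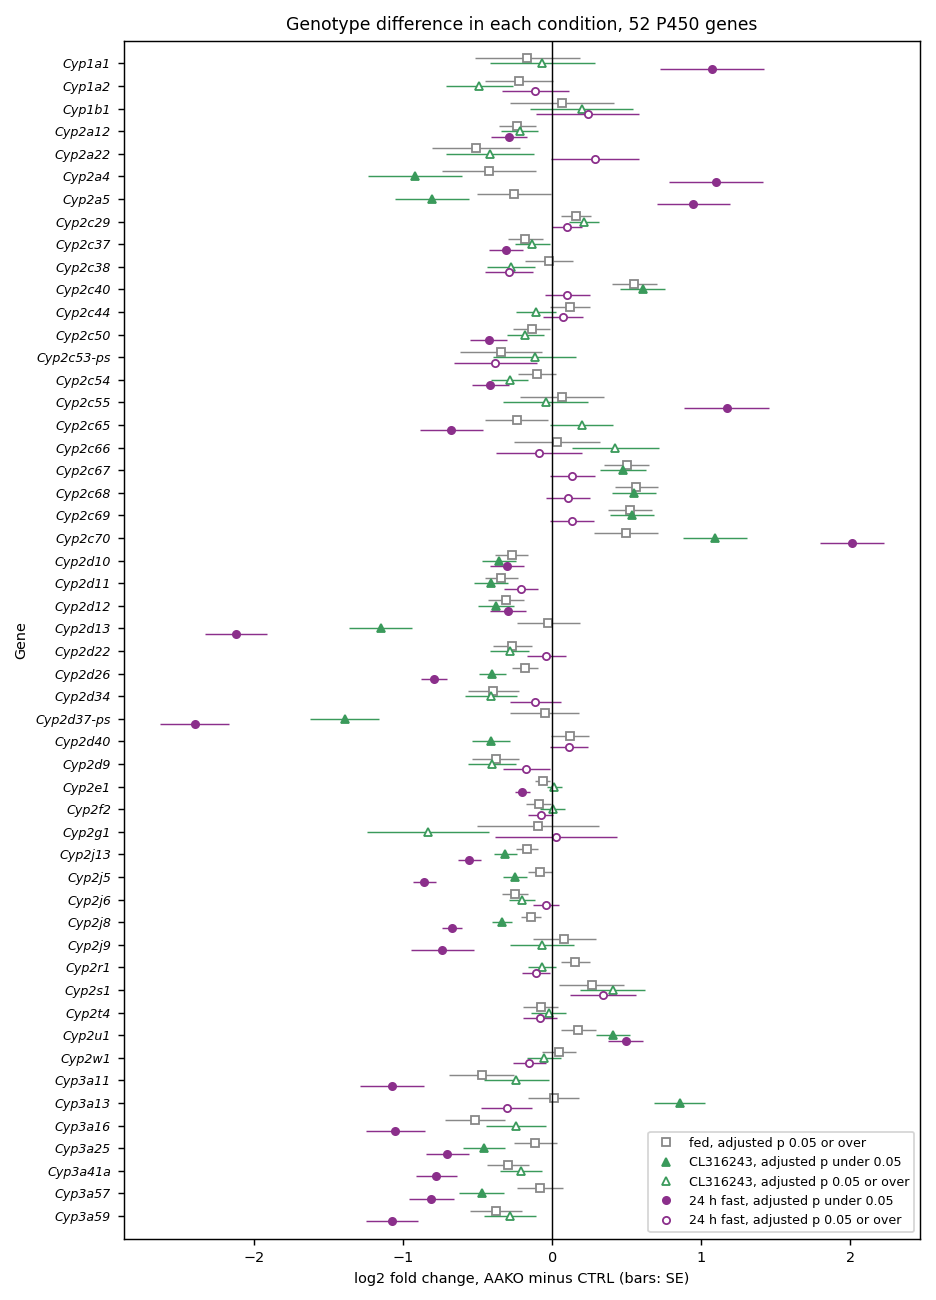
AAKO minus CTRL log2 difference ± SE for the tested members in fed mice, after CL316243 and in fasted mice (limma, n = 6 per group). No fed difference was called, and the widest differences are those of Cyp2d37-ps (-2.40), Cyp2d13 (-2.12) and Cyp2c70 (2.01) in fasted mice.

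Fasting against feeding called 29 members in CTRL (55.8%), 6 higher and 23 lower, where 43.3% of all genes were called, 20.9% higher and 22.4% lower. The members' median was -0.36 and that of all genes -0.03. In AAKO it called 33 (63.5%), 6 higher and 27 lower, the same percentage as over all genes, 63.5%, of which 27.8% were higher and 35.7% lower; the medians were -0.35 and -0.09. Cyp2u1, whose probes disagree between fasted genotypes, was among the 6 higher in AAKO. Without the fasted CTRL replicate 2 the CTRL count was 29, 6 higher and 23 lower. Wash batch 1 alone gave 24 calls in CTRL and 27 in AAKO, and wash batch 2 alone 17 and 24. Cyp2c members made up the largest group to fall: 11 of 15 in CTRL and 12 of 15 in AAKO, with 0 higher in either. The Cyp3a subfamily went apart from them, with 3 of 7 higher and 0 lower in CTRL, and 2 higher and 2 lower in AAKO. For these contrasts, experiment and fasting cannot be told apart.

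The change with fasting itself differed between genotypes for 14 members (26.9%), 4 positive and 10 negative, against 33.9% of all genes, 14.5% positive and 19.4% negative, a members' share below that of the array as a whole. The medians were -0.13 and -0.06. Positive values belonged to Cyp2a4, Cyp2a5, Cyp2c70 and Cyp2c55, and negative ones to 3 of 10 Cyp2d, 4 of 5 Cyp2j and 3 of 7 Cyp3a members. Leaving out the fasted CTRL replicate 2 gave 18 calls, 5 positive and 13 negative, and the wash batches on their own gave 12 and 3.

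**Figure D3:**
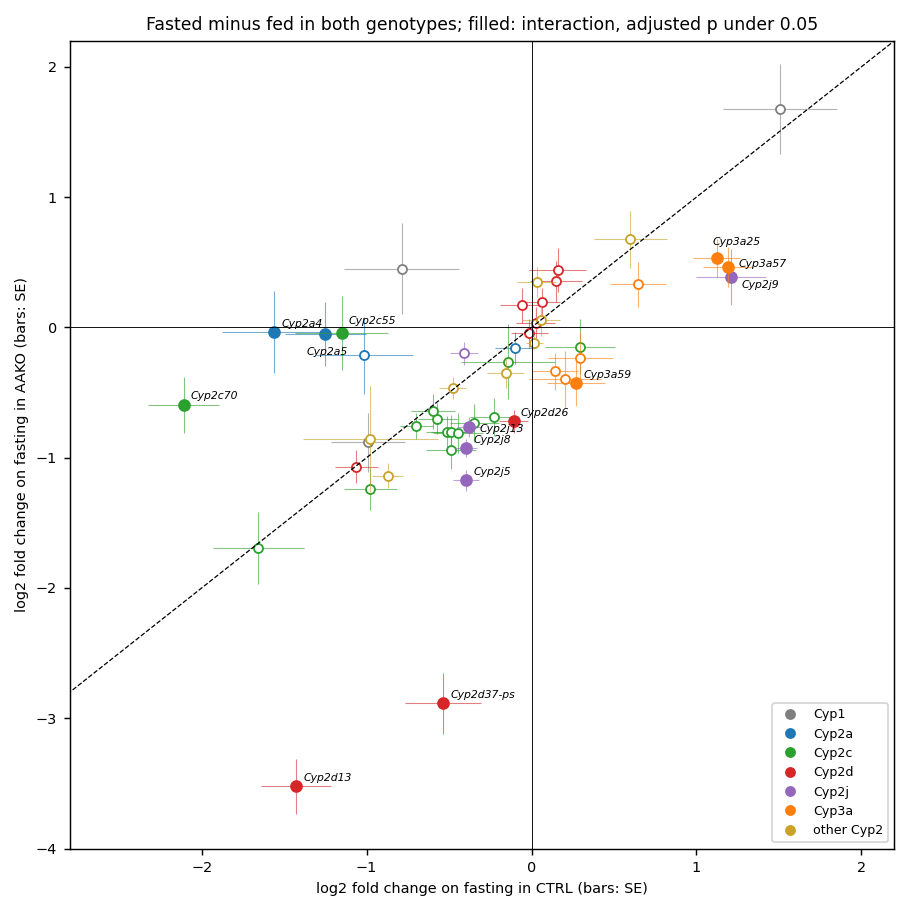
Fasted minus fed log2 difference of each tested member in CTRL mice (horizontal) and AAKO mice (vertical), with the line of equal change dashed and filled points for members whose interaction was called by limma. Most points lie below 0 on both axes, with Cyp2d13 and Cyp2d37-ps far under the line and Cyp2c70 far over it.

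CL316243 against feeding called 11 members in CTRL (21.2%), 2 higher and 9 lower, close to the 23.3% of all genes (10.4% higher, 12.9% lower), with medians of -0.09 and -0.03. It called 21 in AAKO (40.4%), 2 higher and 19 lower, against 31.4% of all genes (15.7% higher, 15.6% lower), with medians of -0.17 and -0.01. In both genotypes 3 of 4 Cyp2a members fell, and in AAKO 8 of 10 Cyp2d members fell as well, against 1 in CTRL. The difference between genotypes in the CL316243 change was called for 3 members (5.77%), Cyp3a13, Cyp2d13 and Cyp2d37-ps, where 10.9% of all genes were called, 6.39% positive and 4.54% negative; the medians were -0.02 and 0.02. Within batch 1 the counts were 4 in CTRL, 22 in AAKO and 3 for the interaction, and within batch 2 they were 2, 2 and 0. With quantile normalization the split was 4 higher and 8 lower in CTRL and 4 higher and 14 lower in AAKO.

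Fasted and CL316243 mice belong to 1 experiment, so this contrast is free of the experiment, though the CL316243 mice alone had a gavage at ZT10. The CL316243 mice were also fed, so fasting and the drug cannot be told apart in this contrast. In CTRL 32 members (61.5%) differed, 11 higher and 21 lower in fasted mice, against 36.8% of all genes (19.2% higher, 17.6% lower), with medians of -0.17 and 0.01. In AAKO 41 members (78.8%) differed, 14 higher and 27 lower, against 59.9% of all genes (26.1% higher, 33.8% lower), with medians of -0.40 and -0.08. In the authors' deposited values the AAKO split was 16 higher and 18 lower, and the median of all genes was 0.05 there. Fasted levels were below CL316243 levels for 10 of 15 Cyp2c members in CTRL and 13 of 15 in AAKO, and for Cyp2a they were above in 3 of 4 AAKO members and in none of the CTRL members. The genotype difference in fasted mice set against that after CL316243 was called for 17 members (32.7%), 5 positive and 12 negative, against 32.3% of all genes (12.7% positive, 19.7% negative), with medians of -0.10 and -0.09. That split moved to 5 and 6 with quantile normalization and to 6 and 6 in the authors' values. Without the fasted CTRL replicate 2, 28 members were called in CTRL (11 higher, 17 lower) and 22 for the difference of genotype differences (6 positive, 16 negative). Wash batch 1 alone gave 22 calls in CTRL, 30 in AAKO and 10 for the difference of genotype differences, and wash batch 2 alone 18, 25 and 3. The contrasts share groups, the fed mice of a genotype serving both its fasting and its CL316243 contrast, so their counts are not independent of one another.

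Family 1 comes first by role, as the direct targets of AHR. Cyp1a2, which is made constitutively in pericentral hepatocytes and oxidises caffeine and arylamines, is the family's main hepatic member. In fed mice Cyp1a2 ran from 3.07 to 4.21 (median 3.54) in CTRL and from 2.77 to 4.19 (median 3.29) in AAKO. After CL316243 Cyp1a2 ran from 3.17 to 3.89 (median 3.66) in CTRL and from 2.71 to 3.60 (median 2.89) in AAKO. In fasted mice Cyp1a2 ran from 1.96 to 2.93 (median 2.71) in CTRL and from 2.16 to 2.88 (median 2.37) in AAKO. The fasted values lay below the fed ones in CTRL with no overlap. Cyp1a2 fell with fasting by 0.99 ± 0.23 (adjusted p = 0.000551) in CTRL and by 0.88 ± 0.23 (adjusted p = 0.00103) in AAKO, and its genotype differences were not called in any condition. Over the 36 arrays the members most like Cyp1a2 were Cyp2c53-ps (Pearson r = 0.764), Cyp2c50 (0.760) and Cyp2j13 (0.745). Cyp1a1, the inducible partner, gave a dim signal that was well above background on 6, 5, 3, 2, 5 and 6 of 6 arrays in fed CTRL, fed AAKO, CL316243 CTRL, CL316243 AAKO, fasted CTRL and fasted AAKO mice. In fed mice Cyp1a1 ran from -4.60 to -3.43 (median -4.38) in CTRL and from -5.88 to -3.66 (median -4.18) in AAKO. After CL316243 Cyp1a1 ran from -6.25 to -5.16 (median -5.71) in CTRL and from -7.25 to -4.71 (median -5.75) in AAKO. In fasted mice Cyp1a1 ran from -5.76 to -4.15 (median -4.93) in CTRL and from -4.69 to -3.45 (median -3.92) in AAKO. The CL316243 groups were the lowest. Cyp1a1 fell by 1.48 ± 0.35 (adjusted p = 0.00217) in CTRL and by 1.38 ± 0.35 (adjusted p = 0.0028) in AAKO after CL316243, and was higher in fasted AAKO than in fasted CTRL mice by 1.07 ± 0.35 (adjusted p = 0.011). The size rests on how background is removed: with normexp the CL316243 changes were -0.26 (adjusted p = 0.0104) and -0.18 (adjusted p = 0.0665), so the AAKO call was lost. Within neither wash batch was the CTRL change called.

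Cyp1b1, better known from steroid-forming and stromal tissues than from hepatocytes, was also dim, above background on 4, 4, 3 and 5 arrays of the fed CTRL, fed AAKO, CL316243 CTRL and CL316243 AAKO groups and on all 6 in both fasted groups. In fed mice Cyp1b1 ran from -5.81 to -4.55 (median -5.06) in CTRL and from -5.67 to -4.51 (median -4.80) in AAKO. After CL316243 Cyp1b1 ran from -5.59 to -4.27 (median -4.95) in CTRL and from -6.34 to -3.17 (median -4.70) in AAKO. In fasted mice Cyp1b1 ran from -4.31 to -2.84 (median -3.65) in CTRL and from -3.85 to -2.73 (median -3.36) in AAKO. Every fasted mouse was above every fed mouse of its genotype. Cyp1b1 rose with fasting by 1.51 ± 0.35 (adjusted p = 0.000635) in CTRL and 1.68 ± 0.35 (adjusted p = 9.12e-05) in AAKO, while normexp gave rises of 0.29 and 0.30, also called. Within wash batch 1 the CTRL rise was 1.01 and not called (adjusted p = 0.130). Of the 5 tested AHR targets outside family 1, 1 was higher and 3 lower in fasted AAKO mice, where 49.3% of all genes were called. Tiparp, an ADP-ribosyltransferase induced by AHR but also by other signals, was higher by 2.55 and Nqo1, a quinone reductase, lower by 0.98 on the log2 scale. Cyp1b1 is also made by stromal cells. Stellate cell markers were called higher for 3 of 8 in fasted against fed CTRL mice, 1 being lower. Of all genes 20.9% were higher and 22.4% lower in that contrast. The summed log2 level of the stellate markers ran from 5.91 to 6.23 in fasted CTRL against 5.48 to 5.92 in fed CTRL. The part of stellate cells in the Cyp1b1 change was not tested.

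The Cyp2a enzymes hydroxylate coumarin, nicotine and steroids. Cyp2a4 is a female-biased testosterone hydroxylase and Cyp2a5 its close copy, and the Cyp2a4 probe lists a Cyp2a5 transcript too, so the pair may be read partly together. In fed mice Cyp2a4 ran from 7.04 to 8.85 (median 8.24) in CTRL and from 6.69 to 8.16 (median 7.90) in AAKO. After CL316243 Cyp2a4 ran from 6.59 to 7.59 (median 6.67) in CTRL and from 5.66 to 6.46 (median 5.83) in AAKO. In fasted mice Cyp2a4 ran from 5.88 to 7.52 (median 6.32) in CTRL and from 6.47 to 7.97 (median 7.79) in AAKO. Fasted and CL316243 CTRL mice and CL316243 AAKO mice had the lowest medians, whereas 5 of 6 fasted AAKO mice lay among the fed values, replicate 2 (6.47) being below them. Cyp2a4 fell with fasting by 1.56 ± 0.32 (adjusted p = 0.000139) in CTRL, while its AAKO change of -0.04 was not called, and the interaction was 1.52 ± 0.45 (adjusted p = 0.00803). In fasted mice it was higher in AAKO by 1.1 ± 0.32 (adjusted p = 0.00425), with overlap. Within wash batch 1 the CTRL fasting change was -2.49 and within wash batch 2 -0.63 (adjusted p = 0.260), and the Cyp2a4 genotype difference in fasted mice was not called within batch 2 (0.83), nor was the interaction (1.19, adjusted p = 0.181).

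Cyp2a5, the coumarin hydroxylase of mouse liver, had the same order of group medians. In fed mice Cyp2a5 ran from 8.01 to 9.01 (median 8.67) in CTRL and from 7.54 to 8.68 (median 8.52) in AAKO. After CL316243 Cyp2a5 ran from 7.25 to 8.25 (median 7.61) in CTRL and from 6.62 to 7.22 (median 6.79) in AAKO. In fasted mice Cyp2a5 ran from 6.73 to 8.29 (median 7.12) in CTRL and from 7.38 to 8.56 (median 8.38) in AAKO. After CL316243 the AAKO mice all lay below the CTRL mice. The CL316243 change was -0.90 ± 0.25 (adjusted p = 0.00752) in CTRL and -1.45 ± 0.25 (adjusted p = 3.16e-05) in AAKO, and fasted minus CL316243 was 1.40 ± 0.25 (adjusted p = 1.17e-05) in AAKO mice with no overlap. Between genotypes Cyp2a5 was lower after CL316243 by 0.81 ± 0.25 (adjusted p = 0.0155) and higher in fasted mice by 0.95 ± 0.25 (adjusted p = 0.00179), and the difference of these 2 differences was 1.75 ± 0.35 (adjusted p = 0.000228). For Cyp2a4 the matching values were -0.92 ± 0.32 after CL316243 (adjusted p = 0.0309) and 2.02 ± 0.45 for the difference of differences. The Cyp2a4 difference after CL316243 was called within neither batch, was lost with slide in the model (adjusted p = 0.0871) and was also lost without CL316243 CTRL replicate 3 or 6 or CL316243 AAKO replicate 1, 3 or 4 (-0.78 at the smallest, adjusted p = 0.0848).

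The other Cyp2a members are steroid hydroxylases of hepatocytes. Cyp2a22 averaged 3.62 ± 0.80 and 3.11 ± 0.56 (SD, n = 6) in fed CTRL and AAKO mice, 2.51 ± 0.36 and 2.08 ± 0.35 after CL316243, and 2.61 ± 0.47 and 2.90 ± 0.46 after fasting. It fell with fasting by 1.01 ± 0.29 (adjusted p = 0.00546) and with CL316243 by 1.11 ± 0.29 (adjusted p = 0.0059) in CTRL, where the batches gave -1.79 and -0.43 for CL316243, the latter not called. Cyp2a12 averaged 6.99 ± 0.14 and 6.75 ± 0.16 (SD, n = 6) in fed CTRL and AAKO mice, 6.86 ± 0.24 and 6.62 ± 0.19 after CL316243, and 6.89 ± 0.32 and 6.60 ± 0.21 after fasting. Its difference between fasted genotypes, -0.29 ± 0.12 (adjusted p = 0.0495), was at the edge of the threshold: the call was lost without any of fasted CTRL replicates 1 to 4 or fasted AAKO replicates 1, 2, 3 and 5, with -0.22 (adjusted p = 0.149) as the smallest value.

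**Figure D4:**
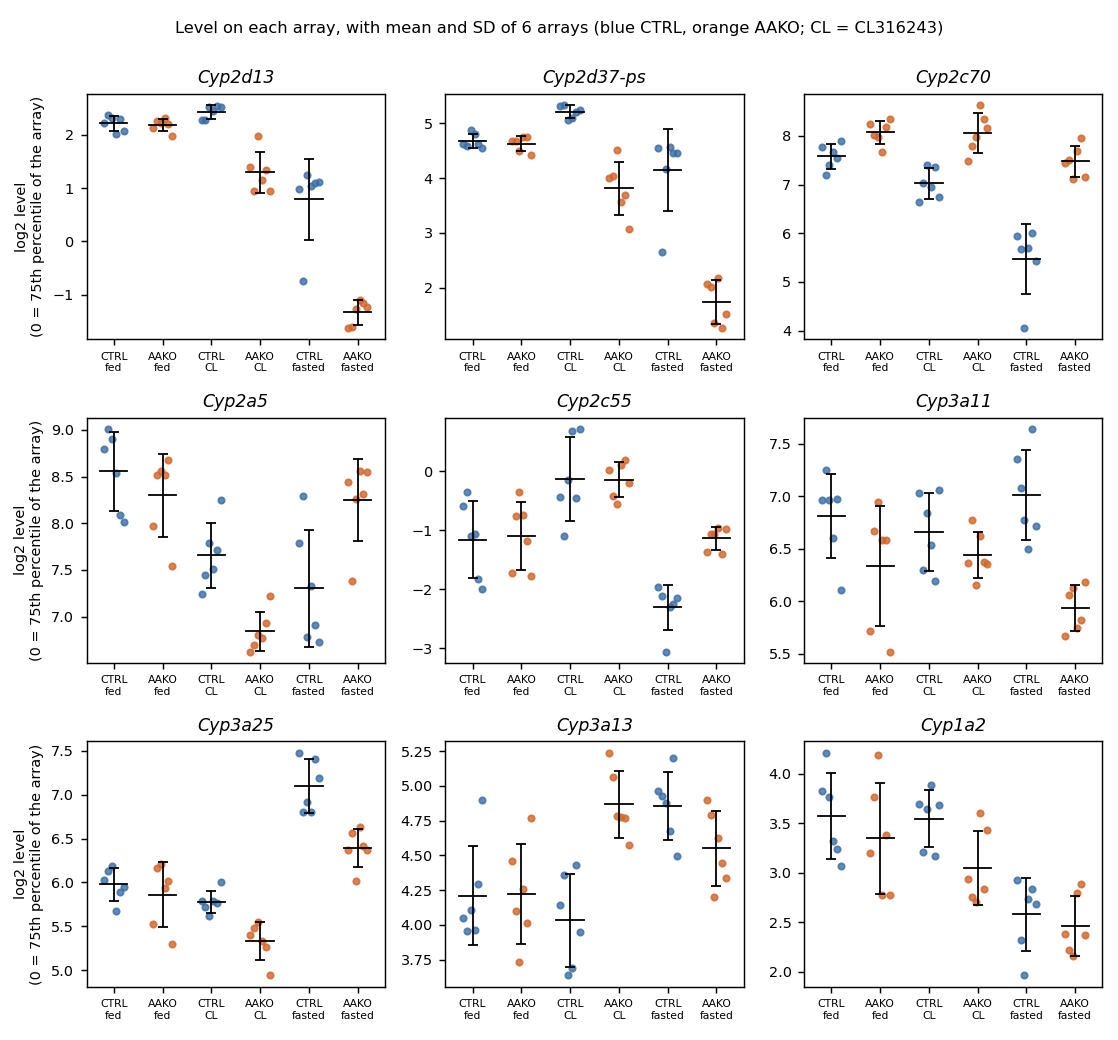
Log2 signal less the array's 75th percentile for 9 members on each array, by group, with the mean and SD of 6 mice per group. Cyp2d13 and Cyp2d37-ps are lowest in fasted AAKO mice, Cyp2c70 and Cyp2a5 have lower means in fasted CTRL than in fasted AAKO mice, and 1 fasted CTRL mouse stands apart for both Cyp2d genes.

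The Cyp2c enzymes make epoxides of arachidonic acid and metabolise many drugs, and Cyp2c70 is the mouse enzyme that turns chenodeoxycholic into muricholic bile acids. Cyp2c70 showed the widest genotype difference on the higher side in fasted mice. In fed mice Cyp2c70 ran from 7.19 to 7.90 (median 7.60) in CTRL and from 7.67 to 8.35 (median 8.10) in AAKO. After CL316243 Cyp2c70 ran from 6.65 to 7.40 (median 6.99) in CTRL and from 7.48 to 8.63 (median 8.07) in AAKO. In fasted mice Cyp2c70 ran from 4.06 to 6.01 (median 5.68) in CTRL and from 7.12 to 7.95 (median 7.48) in AAKO. Fasted CTRL mice were below all other groups, and 1 of them, replicate 3, was at 4.06 while the next lowest was at 5.43. Cyp2c70 fell with fasting by 2.11 ± 0.22 (adjusted p = 1.96e-09) in CTRL, 4.32-fold, but by 0.59 ± 0.22 (adjusted p = 0.0169) in AAKO, and the interaction was 1.52 ± 0.30 (adjusted p = 0.000221). It was higher in AAKO by 2.01 ± 0.22 (adjusted p = 3.72e-09) in fasted mice and by 1.09 ± 0.22 (adjusted p = 0.000291) after CL316243, with no overlap in either, while the fed difference of 0.49 ± 0.22 was not called (adjusted p = 0.690). Within wash batch 1 the CL316243 difference of 0.83 was not called.

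Cyp2c55, an inducible arachidonic acid hydroxylase known mainly from the gut, was dimmer. In fed mice Cyp2c55 ran from -2.01 to -0.35 (median -1.08) in CTRL and from -1.78 to -0.35 (median -0.98) in AAKO. After CL316243 Cyp2c55 ran from -1.11 to 0.72 (median -0.29) in CTRL and from -0.55 to 0.19 (median -0.09) in AAKO. In fasted mice Cyp2c55 ran from -3.06 to -1.97 (median -2.20) in CTRL and from -1.40 to -0.97 (median -1.06) in AAKO. The CL316243 groups were the highest and fasted CTRL mice the lowest. Cyp2c55 was higher in fasted AAKO than fasted CTRL mice by 1.17 ± 0.28 (adjusted p = 0.000926), with no overlap, and fasted CTRL mice lay below CL316243 CTRL mice by 2.19 ± 0.28 (adjusted p = 2.92e-07). The genotype difference was 0.89 and not called within wash batch 2 (adjusted p = 0.101). Against fed mice it rose after CL316243 by 1.03 ± 0.28 (adjusted p = 0.00783) in CTRL and 0.93 ± 0.29 (adjusted p = 0.0128) in AAKO; the CTRL call was lost within batch 1 and when only those 2 groups were fitted (adjusted p = 0.0669), and the AAKO call within both batches. The fasting interaction of 1.11 ± 0.40 (adjusted p = 0.0322) was lost without fed CTRL replicate 1 or 2, fed AAKO replicate 1 or 6, fasted CTRL replicate 3 or fasted AAKO replicate 4 (0.94 at the smallest, adjusted p = 0.0706). Cyp2c38 averaged 5.30 ± 0.41 and 5.27 ± 0.36 (SD, n = 6) in fed CTRL and AAKO mice, 5.75 ± 0.17 and 5.52 ± 0.31 after CL316243, and 4.32 ± 0.35 and 4.03 ± 0.30 after fasting. It fell with fasting by 0.98 on the log2 scale in CTRL and 1.24 in AAKO, and its CL316243 rise in CTRL of 0.45 ± 0.16 (adjusted p = 0.0398) was not called within either batch, nor without any of fed CTRL replicates 3 to 6 or CL316243 CTRL replicates 1, 4, 5 and 6 (0.33 at the smallest, adjusted p = 0.132).

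Most of the other Cyp2c members fell with fasting in both genotypes. Cyp2c29 averaged 6.73 ± 0.17 and 6.89 ± 0.18 (SD, n = 6) in fed CTRL and AAKO mice, 6.76 ± 0.15 and 6.97 ± 0.12 after CL316243, and 6.03 ± 0.23 and 6.13 ± 0.13 after fasting. This PXR- and CAR-inducible gene fell by 0.70 ± 0.10 (adjusted p = 8.78e-07) in CTRL and 0.76 ± 0.10 (adjusted p = 7.08e-08) in AAKO, fasted mice lying below fed mice without overlap in each. Cyp2c37, Cyp2c50 and Cyp2c54 encode enzymes that oxidise arachidonic acid and were lowest in fasted AAKO mice. The Cyp2c37 probe lists Cyp2c50 too, so these may not be separate readings. Cyp2c37 averaged 7.54 ± 0.14 and 7.36 ± 0.29 (SD, n = 6) in fed CTRL and AAKO mice, 7.15 ± 0.19 and 7.03 ± 0.17 after CL316243, and 6.97 ± 0.24 and 6.66 ± 0.14 after fasting. Cyp2c50 averaged 7.17 ± 0.14 and 7.03 ± 0.28 (SD, n = 6) in fed CTRL and AAKO mice, 6.87 ± 0.19 and 6.69 ± 0.21 after CL316243, and 6.66 ± 0.26 and 6.23 ± 0.15 after fasting. Cyp2c54 averaged 6.79 ± 0.13 and 6.68 ± 0.26 (SD, n = 6) in fed CTRL and AAKO mice, 6.58 ± 0.19 and 6.30 ± 0.28 after CL316243, and 6.30 ± 0.26 and 5.88 ± 0.13 after fasting. For all 3 genes every fasted mouse lay below every fed mouse of its genotype. They fell by 0.57, 0.52 and 0.49 in CTRL and by 0.70, 0.80 and 0.80 in AAKO on the log2 scale, and were lower in fasted AAKO mice by 0.31, 0.43 and 0.42 (adjusted p = 0.0258, 0.00435 and 0.00616), the Cyp2c37 call being lost without fasted CTRL replicate 1, 4 or 6 or fasted AAKO replicate 2 (-0.24 at the smallest, adjusted p = 0.0915). Cyp2c44 averaged 5.71 ± 0.10 and 5.83 ± 0.24 (SD, n = 6) in fed CTRL and AAKO mice, 5.63 ± 0.33 and 5.53 ± 0.28 after CL316243, and 5.11 ± 0.27 and 5.19 ± 0.11 after fasting. Cyp2c44, listed as Cyp2c23 in RefSeq and an epoxygenase of kidney and liver, fell by 0.60 and 0.64. Cyp2c53-ps, which RefSeq lists as a transcribed pseudogene, fell by 1.66 ± 0.28 (adjusted p = 9.88e-06) in CTRL and 1.69 ± 0.28 (adjusted p = 2.79e-06) in AAKO, but it is dim and normexp gave -0.67 for both.

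Cyp2c40, Cyp2c67, Cyp2c68 and Cyp2c69 are close copies in the cluster on chromosome 19, of which Cyp2c40 and Cyp2c69 are female-biased in mouse liver. Cyp2c40 averaged 3.85 ± 0.18 and 4.40 ± 0.30 (SD, n = 6) in fed CTRL and AAKO mice, 3.84 ± 0.34 and 4.43 ± 0.16 after CL316243, and 3.36 ± 0.33 and 3.46 ± 0.25 after fasting. Cyp2c69 averaged 5.70 ± 0.12 and 6.22 ± 0.21 (SD, n = 6) in fed CTRL and AAKO mice, 5.84 ± 0.46 and 6.37 ± 0.17 after CL316243, and 5.35 ± 0.26 and 5.48 ± 0.16 after fasting. After CL316243 these genes were higher in AAKO. The difference was 0.61 ± 0.15 (adjusted p = 0.00326) for Cyp2c40, 0.47 (adjusted p = 0.0208) for Cyp2c67, 0.55 (adjusted p = 0.00572) for Cyp2c68 and 0.54 (adjusted p = 0.00763) for Cyp2c69. The fed differences of these genes had the same direction and similar size but were not called. For the CL316243 interaction 0 of 15 Cyp2c members were called, so the difference is not shown to be particular to CL316243. The Cyp2c40 probe also lists Cyp2c68 transcripts, the Cyp2c68 probe those of Cyp2c40 and Cyp2c69, and the Cyp2c69 probe those of the other 3, while the Cyp2c67 probe lists its own gene alone. The Cyp2c40 difference was not called within either wash batch (0.56 and 0.62), and the Cyp2c67 call was lost without CL316243 CTRL replicate 1, 2 or 6 (0.35 at the smallest, adjusted p = 0.0732). Cyp2c65 was above background on all 6 fasted CTRL arrays but on at most 4 of any other group. Cyp2c65 averaged -5.16 ± 0.59 and -5.40 ± 0.31 (SD, n = 6) in fed CTRL and AAKO mice, -5.58 ± 0.39 and -5.44 ± 0.26 after CL316243, and -4.87 ± 0.28 and -5.55 ± 0.53 after fasting. It was lower in fasted AAKO mice by 0.68 on the log2 scale (adjusted p = 0.0081), and as it passed the filter through the fasted CTRL group this difference carries no independent weight. The same holds for its place among the 11 members higher in fasted than in CL316243 CTRL mice. It holds too for its place among the 12 negative differences of genotype differences. Cyp2c66, above background on 2, 3, 3 and 3 arrays of the fed CTRL, fed AAKO, fasted CTRL and fasted AAKO groups and on 3 and 5 in CL316243 mice, was called in no contrast.

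Some promoters of this block and of the Cyp3a block share a short sequence that the rule did not use. RefSeq windows (GRCm38.p6, 250 bases before to 50 after the start site) were found for 45 member genes, in 48 windows. The letters CAAAGTCCA, a core bound by HNF4-type receptors, stood on the gene's own strand in 9 of 48 windows (18.8%), against 85 of 32851 windows of all genes (0.259%), between 45 and 125 bases before the start site. The 9 were Cyp2c40, Cyp2c65, Cyp2c67, Cyp2c68, Cyp2c69 and Cyp2c70 in family 2 and Cyp3a11, Cyp3a16 and Cyp3a41a in family 3. The windows below are 45 bases long with the motif in capitals, and are shown for the 5 Cyp2c genes called higher in AAKO after CL316243, for 3 of the 6 Cyp3a genes called lower in fasted AAKO mice, and for Cyp3a44, which lacks the exact letters:
Cyp2c40, chr19:39812833-39812877, minus strand: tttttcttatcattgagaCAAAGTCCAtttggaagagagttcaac
Cyp2c67, chr19:39649141-39649185, minus strand: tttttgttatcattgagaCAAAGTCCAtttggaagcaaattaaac
Cyp2c68, chr19:39741152-39741196, minus strand: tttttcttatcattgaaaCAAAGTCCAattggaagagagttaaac
Cyp2c69, chr19:39886818-39886862, minus strand: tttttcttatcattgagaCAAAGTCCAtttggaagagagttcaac
Cyp2c70, chr19:40187324-40187368, minus strand: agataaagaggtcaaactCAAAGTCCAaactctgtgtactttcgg
Cyp3a11, chr5:145879937-145879981, minus strand: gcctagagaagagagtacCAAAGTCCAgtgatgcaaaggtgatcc
Cyp3a16, chr5:145469796-145469840, minus strand: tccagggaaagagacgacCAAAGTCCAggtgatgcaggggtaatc
Cyp3a41a, chr5:145720205-145720249, minus strand: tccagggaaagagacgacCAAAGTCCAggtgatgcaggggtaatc
Cyp3a44, chr5:145805943-145805987, minus strand: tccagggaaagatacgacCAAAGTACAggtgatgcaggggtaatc
The Cyp3a44 window differs from the motif by C7A, counted from 1 at the motif's 5′ end with the motif's base first. Another 12 members, Cyp3a44 among them, held it with 1 mismatch, Cyp2c39 in both of its windows, so that 22 of 48 windows (45.8%) and 1433 of 32851 (4.36%) had it exactly or with 1 mismatch. Among these were C8T in Cyp2c29 and Cyp2c37, A9G in Cyp2a4 and Cyp2a5, C7G in Cyp2c50 and Cyp2d26, and A3G in Cyp2c55. The flanks are alike between copies as well, so the 9 windows are not independent. Among members with the exact letters, Cyp2c70 was higher in fasted AAKO mice and Cyp3a11, Cyp3a16 and Cyp3a41a were lower. Other called genes lack these letters, among them Cyp2c55, higher in fasted AAKO mice, and Cyp3a25, Cyp3a57 and Cyp3a59, lower there. Any part of the letters in these changes was not tested. On both strands together the exact letters stood in 18.75% of member windows and 0.47% of all. GCGTG, the core of the AHR element, stood in 8 of 48 member windows on either strand (16.67%, all windows 32.39%), those of Cyp1a1 and Cyp1b1 included, and TTCNNNGAA, a STAT element, in 1 (2.08%, all windows 8.3%), that of Cyp2j11. Exact DR1, DR4 and ER6 repeats of nuclear receptor half-sites were found in 0 member windows. A match describes letters in a window, not a site in use.

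The Cyp2d enzymes are the mouse counterparts of the human debrisoquine hydroxylase. Cyp2d13 and Cyp2d37-ps, both listed by RefSeq as transcribed pseudogenes, had the widest ranges of group means of all 52 members, 3.77 and 3.47. In fed mice Cyp2d13 ran from 2.02 to 2.37 (median 2.26) in CTRL and from 1.98 to 2.31 (median 2.22) in AAKO. After CL316243 Cyp2d13 ran from 2.27 to 2.55 (median 2.48) in CTRL and from 0.94 to 1.98 (median 1.25) in AAKO. In fasted mice Cyp2d13 ran from -0.75 to 1.24 (median 1.07) in CTRL and from -1.63 to -1.1 (median -1.25) in AAKO. Fasted AAKO mice were below every other mouse, and fasted CTRL replicate 2, at -0.75, was the only CTRL mouse under 0 while the next in its group read 0.98. Cyp2d13 fell with fasting by 1.43 ± 0.21 (adjusted p = 1.44e-06) in CTRL and 3.52 ± 0.21 (adjusted p = 3.24e-15) in AAKO, and in fasted mice it was lower in AAKO by 2.12 ± 0.21 (adjusted p = 8.36e-10), 4.36-fold. After CL316243 it was lower in AAKO by 1.15 ± 0.21 (adjusted p = 0.000116), where fed mice differed by -0.03 ± 0.21. The interactions were -2.10 ± 0.30 (adjusted p = 2.1e-06) for fasting and -1.12 ± 0.30 (adjusted p = 0.0116) for CL316243. Without fasted CTRL replicate 2 the fasted difference was -2.43. The CTRL fasting change and the fasting interaction given here include that mouse. Within wash batch 2 the CL316243 difference of -0.87 and the fasting interaction of -1.65 were not called (adjusted p = 0.247 and 0.0556), nor was the CL316243 interaction of -0.80 (adjusted p = 0.552).

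In fed mice Cyp2d37-ps ran from 4.55 to 4.88 (median 4.62) in CTRL and from 4.42 to 4.75 (median 4.67) in AAKO. After CL316243 Cyp2d37-ps ran from 5.05 to 5.33 (median 5.22) in CTRL and from 3.08 to 4.50 (median 3.85) in AAKO. In fasted mice Cyp2d37-ps ran from 2.65 to 4.56 (median 4.46) in CTRL and from 1.27 to 2.18 (median 1.78) in AAKO. The same fasted CTRL mouse was low, at 2.65 against 4.16 for the next. In fasted mice Cyp2d37-ps was lower in AAKO by 2.40 ± 0.23 (adjusted p = 5.12e-10), 5.28-fold, and after CL316243 by 1.39 ± 0.23 (adjusted p = 3.49e-05), with no overlap in either. It fell with fasting in AAKO by 2.89 ± 0.23 (adjusted p = 2.19e-12), whereas the CTRL change of -0.54 was not called (-0.23 without fasted CTRL replicate 2), and the interactions were -2.35 ± 0.33 (adjusted p = 1.65e-06) for fasting and -1.34 ± 0.33 (adjusted p = 0.00609) for CL316243. Without fasted CTRL replicate 2 the fasted difference was -2.71. The fasting interaction given here includes that mouse. Within wash batch 2 the CL316243 difference was -1.17 and not called (adjusted p = 0.164), and so was the interaction (adjusted p = 0.411).

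For Cyp2d13 the probe matters. The chosen probe lies at chr15:82466843-82466902 (mm9, minus strand) and lists no RefSeq transcript, while the other, which does, lies at chr15:82469006-82469065; the first 30 bases of each and of the single Cyp2d37-ps probe (chr15:82519182-82519241) are shown to let them be placed:
Cyp2d13, chosen probe: tttattccttttcttatttatgacatgttc
Cyp2d13, other probe: atgaacttgccacacaagacttctcatgat
Cyp2d37-ps: ggctccagccatcatcacagattgttctga
The other Cyp2d13 probe had the same direction and smaller size, -0.68 in fasted mice, -0.75 after CL316243 and -1.67 for fasting in AAKO. Over the 36 arrays the members most like Cyp2d13 were Cyp2d37-ps (Pearson r = 0.948), Cyp2j5 (0.944) and Cyp2j8 (0.941), points that share arrays, groups and scaling.

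By their chosen probes the coding Cyp2d genes differed less between genotypes. Cyp2d26 averaged 8.46 ± 0.12 and 8.27 ± 0.13 (SD, n = 6) in fed CTRL and AAKO mice, 8.38 ± 0.15 and 8.0 ± 0.12 after CL316243, and 8.35 ± 0.26 and 7.55 ± 0.13 after fasting. It was lower in fasted AAKO mice by 0.80 ± 0.09 (adjusted p = 5.91e-09) and after CL316243 by 0.40 ± 0.09 (adjusted p = 0.000852), without overlap in both, and its second probe gave -0.25 in fasted mice. Cyp2d9 averaged 6.15 ± 0.28 and 5.77 ± 0.46 (SD, n = 6) in fed CTRL and AAKO mice, 5.79 ± 0.29 and 5.38 ± 0.12 after CL316243, and 6.30 ± 0.18 and 6.12 ± 0.18 after fasting. This male-biased testosterone hydroxylase was 0.40 lower after CL316243 in AAKO, which was not called. Cyp2d10 averaged 8.31 ± 0.22 and 8.03 ± 0.32 (SD, n = 6) in fed CTRL and AAKO mice, 8.07 ± 0.18 and 7.73 ± 0.09 after CL316243, and 8.29 ± 0.20 and 7.99 ± 0.07 after fasting. Cyp2d22 averaged 0.96 ± 0.24 and 0.70 ± 0.40 (SD, n = 6) in fed CTRL and AAKO mice, 0.40 ± 0.25 and 0.13 ± 0.16 after CL316243, and 0.91 ± 0.10 and 0.87 ± 0.10 after fasting. Cyp2d10, Cyp2d11, Cyp2d12 and Cyp2d40 were lower in AAKO after CL316243 by 0.36, 0.41, 0.38 and 0.41 on the log2 scale, with the Cyp2d10 call lost without CL316243 CTRL replicate 4 (-0.31), the Cyp2d12 call without replicate 1 (-0.32) and the Cyp2d40 call without replicate 5 (-0.35) of that group. Cyp2d40 fell with fasting by 1.06 ± 0.13 (adjusted p = 4.7e-08) in CTRL and 1.07 ± 0.13 (adjusted p = 1.13e-08) in AAKO by its chosen probe, and by 2.91 and 3.53 by its other, dimmer probe. That other probe lists no RefSeq transcript. It also gave wider genotype differences, -1.90 ± 0.52 after CL316243 (adjusted p = 0.00725 in the limma fit of every probe) and -1.20 ± 0.52 in fasted mice (adjusted p = 0.0540, not called).

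**Figure D5:**
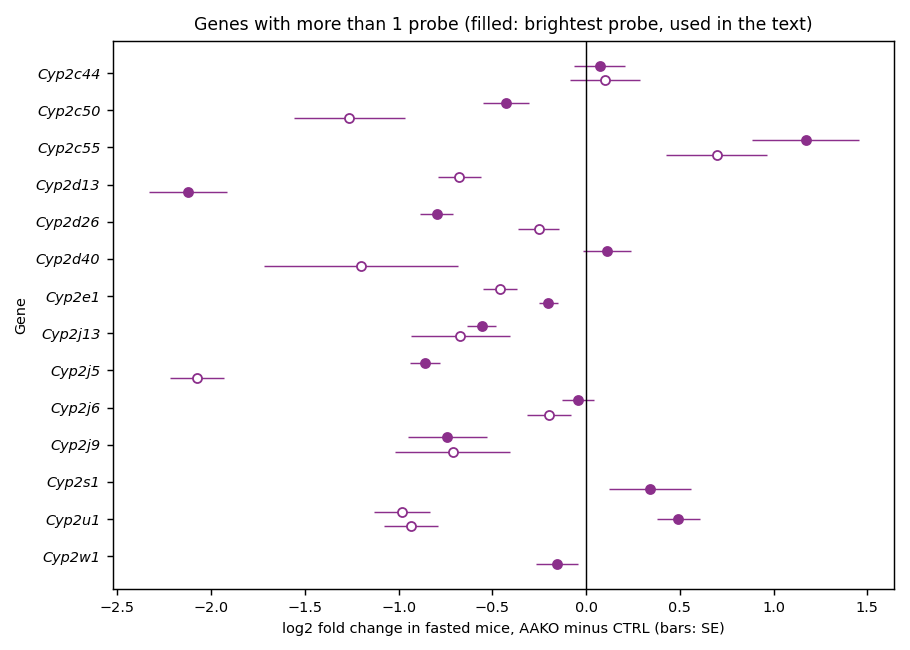
AAKO minus CTRL log2 difference in fasted mice for each tested probe of the 14 members with more than 1 probe, the chosen probe filled. Probes of Cyp2u1 lie on opposite sides of 0 (0.49 against -0.98 and -0.93), and those of Cyp2d40, Cyp2d13 and Cyp2j5 differ widely in size.

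The Cyp2j enzymes are arachidonic acid epoxygenases, with Cyp2j5 abundant in liver and kidney. In fed mice Cyp2j5 ran from 5.30 to 5.49 (median 5.45) in CTRL and from 5.18 to 5.50 (median 5.34) in AAKO. After CL316243 Cyp2j5 ran from 5.31 to 5.63 (median 5.50) in CTRL and from 5.13 to 5.40 (median 5.21) in AAKO. In fasted mice Cyp2j5 ran from 4.88 to 5.23 (median 5.01) in CTRL and from 3.97 to 4.46 (median 4.09) in AAKO. Fasted AAKO mice were below all others, with no overlap. Cyp2j5 fell with fasting by 0.40 ± 0.08 (adjusted p = 0.000114) in CTRL and 1.18 ± 0.08 (adjusted p = 4.17e-14) in AAKO, so the interaction was -0.78 ± 0.11 (adjusted p = 2.51e-06), and it was lower in fasted AAKO mice by 0.86 ± 0.08 (adjusted p = 1.93e-10); its other probe gave -2.07. Cyp2j8 and Cyp2j13 were lower in fasted AAKO mice by 0.67 ± 0.07 (adjusted p = 1.69e-09) and 0.56 ± 0.08 (adjusted p = 2.66e-07). Cyp2j9 averaged 0.47 ± 0.27 and 0.55 ± 0.30 (SD, n = 6) in fed CTRL and AAKO mice, 0.50 ± 0.20 and 0.44 ± 0.24 after CL316243, and 1.68 ± 0.60 and 0.94 ± 0.47 after fasting. Cyp2j9, best known from brain, was the one Cyp2j member to rise with fasting in CTRL, by 1.21 ± 0.21 (adjusted p = 2.12e-05), or 2.40 by its other probe, which lists no RefSeq transcript. Its interaction of -0.82 ± 0.30 (adjusted p = 0.033) was lost without the filter on dim probes (adjusted p = 0.0525) and without fed CTRL replicate 1, fed AAKO replicate 1, fasted CTRL replicate 1, 5 or 6 or fasted AAKO replicate 3 or 6 (-0.64 at the smallest, adjusted p = 0.0739). It was -1.41 within wash batch 1 but -0.24 within wash batch 2 (adjusted p = 0.758), and was also lost in a fit of only the groups compared (adjusted p = 0.0707). Cyp2j6 averaged 1.71 ± 0.16 and 1.46 ± 0.15 (SD, n = 6) in fed CTRL and AAKO mice, 1.46 ± 0.08 and 1.24 ± 0.20 after CL316243, and 1.30 ± 0.14 and 1.26 ± 0.17 after fasting. It fell with fasting in CTRL by 0.41.

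Several subfamilies have 1 member. Cyp2e1, the ethanol and acetone oxidase of pericentral hepatocytes, which ketones are known to raise mainly at the protein level, changed little. In fed mice Cyp2e1 ran from 9.37 to 9.75 (median 9.48) in CTRL and from 9.34 to 9.54 (median 9.41) in AAKO. After CL316243 Cyp2e1 ran from 9.27 to 9.57 (median 9.40) in CTRL and from 9.35 to 9.52 (median 9.45) in AAKO. In fasted mice Cyp2e1 ran from 9.40 to 9.61 (median 9.52) in CTRL and from 9.20 to 9.41 (median 9.33) in AAKO. All 6 groups overlapped. It was lower in fasted AAKO than fasted CTRL mice by 0.20 ± 0.05 (adjusted p = 0.00135), -0.46 by its other probe. Its fasting change in AAKO, -0.12 ± 0.05 (adjusted p = 0.0442), was called, but was 0.01 with quantile normalization and in the authors' values. The call was also lost without fed AAKO replicate 2, 3, 5 or 6 or fasted AAKO replicate 1, 2, 3 or 6 (-0.10 at the smallest, adjusted p = 0.114). The members most like it over the arrays were Cyp2d26 (Pearson r = 0.550), Cyp3a41a (0.528) and Cyp3a59 (0.503). Cyp2f2, a portal-side enzyme that activates naphthalene, fell with fasting. Cyp2f2 averaged 8.47 ± 0.13 and 8.38 ± 0.10 (SD, n = 6) in fed CTRL and AAKO mice, 8.22 ± 0.20 and 8.22 ± 0.13 after CL316243, and 7.99 ± 0.17 and 7.91 ± 0.07 after fasting. The fall was 0.48 ± 0.08 (adjusted p = 1.92e-05) in CTRL and 0.46 ± 0.08 (adjusted p = 1.28e-05) in AAKO, without overlap. Most like it were Cyp2c53-ps (Pearson r = 0.787), Cyp2r1 (0.772) and Cyp2c37 (0.743).

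Cyp2r1 averaged 2.81 ± 0.11 and 2.97 ± 0.10 (SD, n = 6) in fed CTRL and AAKO mice, 2.71 ± 0.16 and 2.64 ± 0.14 after CL316243, and 1.94 ± 0.25 and 1.83 ± 0.15 after fasting. Cyp2r1, which makes the circulating form of vitamin D, fell with fasting by 0.87 ± 0.09 (adjusted p = 6.17e-09) in CTRL and 1.14 ± 0.09 (adjusted p = 4.44e-12) in AAKO, without overlap in either. Cyp2u1 averaged 8.36 ± 0.09 and 8.53 ± 0.29 (SD, n = 6) in fed CTRL and AAKO mice, 8.41 ± 0.18 and 8.79 ± 0.14 after CL316243, and 8.39 ± 0.34 and 8.88 ± 0.16 after fasting. Cyp2u1, a fatty acid ω-hydroxylase, was higher in fasted AAKO mice by 0.49 ± 0.12 (adjusted p = 0.000656) by its chosen probe (chr3:130996343-130996402, no RefSeq transcript listed), but -0.98 and -0.93 by its other probes, so the gene has no settled direction here. The first 30 bases of the chosen probe and of one other (chr3:131000768-131000827) are:
Cyp2u1, chosen probe: actttatcattggtgtgtgtgtgtgtgtgt
Cyp2u1, other probe: agcagcttcgacgaggactacctgttctac
The chosen window ends in a run of alternating g and t. Cyp2s1 averaged -3.13 ± 0.36 and -2.86 ± 0.33 (SD, n = 6) in fed CTRL and AAKO mice, -2.71 ± 0.40 and -2.31 ± 0.48 after CL316243, and -2.53 ± 0.35 and -2.19 ± 0.38 after fasting. Cyp2s1, a retinoid-oxidising enzyme of epithelia, rose with fasting by 0.60 in CTRL and 0.68 in AAKO, the first lost without fed CTRL replicate 3 or 5 or fasted CTRL replicate 3 (0.47 at the smallest, adjusted p = 0.0896) and the second within wash batch 1 (0.54). Cyp2g1 averaged -1.74 ± 0.80 and -1.84 ± 0.68 (SD, n = 6) in fed CTRL and AAKO mice, -1.43 ± 0.78 and -2.26 ± 0.58 after CL316243, and -2.72 ± 0.95 and -2.70 ± 0.44 after fasting. Cyp2g1, an olfactory enzyme, was lower in fasted than CL316243 CTRL mice by 1.29 ± 0.41 (adjusted p = 0.0125). Cyp2w1 fell with fasting in AAKO by 0.35, and Cyp2t4 was called in no contrast.

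The Cyp3a enzymes oxidise steroids, bile acids and a large share of drugs, and Cyp3a11 is the chief hepatic PXR target of the mouse. In fed mice Cyp3a11 ran from 6.11 to 7.25 (median 6.97) in CTRL and from 5.52 to 6.94 (median 6.59) in AAKO. After CL316243 Cyp3a11 ran from 6.19 to 7.06 (median 6.69) in CTRL and from 6.16 to 6.78 (median 6.37) in AAKO. In fasted mice Cyp3a11 ran from 6.50 to 7.64 (median 6.93) in CTRL and from 5.68 to 6.19 (median 5.94) in AAKO. Fasted AAKO mice lay below fasted CTRL mice with no overlap. Cyp3a11 was lower in them by 1.08 ± 0.22 (adjusted p = 0.000114), 2.11-fold, while the fed difference of -0.48 was not called (adjusted p = 0.715). Cyp3a16 averaged 6.08 ± 0.31 and 5.56 ± 0.58 (SD, n = 6) in fed CTRL and AAKO mice, 6.05 ± 0.29 and 5.82 ± 0.24 after CL316243, and 6.38 ± 0.37 and 5.32 ± 0.23 after fasting. Cyp3a41a averaged 8.71 ± 0.21 and 8.41 ± 0.45 (SD, n = 6) in fed CTRL and AAKO mice, 8.77 ± 0.15 and 8.59 ± 0.17 after CL316243, and 8.85 ± 0.28 and 8.08 ± 0.18 after fasting. These female-biased copies were lower in fasted AAKO mice by 1.05 ± 0.20 (adjusted p = 4.89e-05) and 0.78 ± 0.14 (adjusted p = 2.43e-05), and Cyp3a59 by 1.08 ± 0.18 (adjusted p = 5.8e-06). The fasting interaction was called for 3 of 7 Cyp3a members, Cyp3a25, Cyp3a57 and Cyp3a59. It was not called for Cyp3a11, Cyp3a16 or Cyp3a41a, so their difference is not shown to be particular to fasting. Cyp3a11 readings correlated with those of Cyp3a59 at 0.979, Cyp3a16 at 0.961 and Cyp3a41a at 0.891 over the 36 arrays. The Cyp3a11 probe lists a Cyp3a41a transcript, so these are not separate readings throughout. The Cyp3a41a probe lists Cyp3a41b as well and the Cyp3a25 probe lists Cyp3a59, while the Cyp3a16 probe lists its own gene alone. All mice were male, and how far the probes of the female-biased copies read Cyp3a11 was not tested.

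Cyp3a25, a steroid hydroxylase of hepatocytes, rose with fasting. In fed mice Cyp3a25 ran from 5.68 to 6.19 (median 5.99) in CTRL and from 5.30 to 6.21 (median 5.98) in AAKO. After CL316243 Cyp3a25 ran from 5.62 to 6.00 (median 5.78) in CTRL and from 4.94 to 5.55 (median 5.37) in AAKO. In fasted mice Cyp3a25 ran from 6.80 to 7.48 (median 7.05) in CTRL and from 6.01 to 6.63 (median 6.39) in AAKO. Both fasted groups were high, CTRL more so, and the CL316243 AAKO mice were low. Cyp3a25 rose by 1.12 ± 0.14 (adjusted p = 1.22e-07) in CTRL and 0.53 ± 0.14 (adjusted p = 0.00165) in AAKO, and was lower in AAKO by 0.71 ± 0.14 (adjusted p = 0.000119) in fasted mice and 0.46 ± 0.14 (adjusted p = 0.0176) after CL316243. The AAKO rise was 0.26 and not called within wash batch 1, the call after CL316243 was lost without CL316243 AAKO replicate 6 (-0.38, adjusted p = 0.0577), and the interaction of -0.59 ± 0.20 (adjusted p = 0.023) without fasted CTRL replicate 1 (-0.51, adjusted p = 0.0512). Cyp3a57, whose probe shares the printed run, rose by 1.19 ± 0.15 (adjusted p = 1.14e-07) in CTRL.

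Cyp3a13, a member expressed in liver and gut, took another course. In fed mice Cyp3a13 ran from 3.96 to 4.90 (median 4.08) in CTRL and from 3.73 to 4.77 (median 4.18) in AAKO. After CL316243 Cyp3a13 ran from 3.64 to 4.43 (median 4.05) in CTRL and from 4.58 to 5.24 (median 4.78) in AAKO. In fasted mice Cyp3a13 ran from 4.49 to 5.20 (median 4.90) in CTRL and from 4.20 to 4.90 (median 4.54) in AAKO. After CL316243 every AAKO mouse was above every CTRL mouse. The difference was 0.85 ± 0.17 (adjusted p = 0.000364), the CL316243 interaction was 0.84 ± 0.24 (adjusted p = 0.0205), and against fasted mice the difference of genotype differences was -1.16 ± 0.24 (adjusted p = 0.000414). Cyp3a13 rose in AAKO after CL316243 by 0.67 ± 0.17 (adjusted p = 0.00327) and in CTRL with fasting by 0.64 ± 0.17 (adjusted p = 0.00258). Within wash batch 2 the genotype difference was as large, 0.87, but not called (adjusted p = 0.0527), and the AAKO rise was 0.34, also not called. The CL316243 interaction was called in neither batch (0.76, adjusted p = 0.257, and 0.84, adjusted p = 0.233), and the difference of genotype differences was -1.07 within batch 2 (adjusted p = 0.0505).

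Genes for the electron supply and the heme on which these enzymes depend were read from the same arrays. Of 16 genes for electron transfer and heme, 2 were higher and 9 lower in fasted AAKO than fasted CTRL mice, with a median of -0.31 against -0.04 over all genes, of which 21.3% were higher and 28.1% lower. With fasting 2 rose and 13 fell in AAKO, and 2 rose and 10 fell in CTRL, with medians of -0.84 and -0.33, where 27.8% and 35.7% of all genes rose and fell in AAKO and 20.9% and 22.4% in CTRL. The rises included Por, the common electron donor, by 0.59 in CTRL and 1.64 in AAKO, while the heme synthesis enzymes Cpox and Uros were lower in fasted AAKO mice by 2.31 and 1.26 on the log2 scale. Hmox1, which breaks heme down, was higher there by 1.49.

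Of 15 tested receptors and regulators, 7 were higher and 3 lower in fasted AAKO mice, and 4 higher and 6 lower after CL316243, where 49.3% and 24.8% of all genes were called. Nr1i3, which encodes CAR, was lower in AAKO by 1.43 in fasted mice and by 1.66 after CL316243 on the log2 scale, and Nr1h4, the bile acid receptor FXR, by 1.24 and 0.51. Hnf4a was higher in fasted AAKO mice by 0.77. Nr1i2, which encodes PXR, was lower after CL316243 by 0.67, and its fasted difference of -0.27 was not called. Cux2, a repressor characteristic of female liver, was higher in AAKO by 3.56 in fasted mice and 2.35 after CL316243. Of 5 tested members known as female-biased 1 was higher and 2 lower in fasted AAKO mice, and 2 higher and 1 lower after CL316243, and of 3 male-biased members 1 was higher in each, Cyp2u1, whose probes disagree.

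Of 10 pericentral genes outside the P450 family, 4 were lower and 0 higher in fasted AAKO mice, a share below the 49.3% called over all genes, and with fasting 7 fell and 1 rose in AAKO and 5 fell and 2 rose in CTRL, where 63.5% and 43.3% of all genes were called. Of 10 periportal genes 6 were higher and 2 lower in fasted AAKO mice, and with fasting 8 rose and 1 fell in AAKO. Of 9 tested CAR and PXR targets outside the members, 2 were higher and 2 lower in fasted AAKO mice, again no larger a share than over all genes. Markers of other cell types were called too. Between fasted genotypes 21.3% of all genes were higher and 28.1% lower in AAKO. Neutrophil markers were higher for 4 of 8 in fasted AAKO mice, with summed levels of 2.70 to 6.43 against 0.11 to 5.79 in fasted CTRL, and cholangiocyte markers lower for 4 of 8. Stellate cell markers were higher for 3 of 8 there, with summed levels of 6.26 to 6.69 in AAKO against 5.91 to 6.23 in CTRL and no overlap, and endothelial markers for 3 of 8, at 5.35 to 5.71 against 4.60 to 5.63. After CL316243 Kupffer cell markers were lower than in fed mice for 6 of 8 in CTRL and 7 of 8 in AAKO and endothelial markers for 7 and 5 of 8. Of all genes 12.9% were lower in that contrast in CTRL and 15.6% in AAKO. The part of these cell types in the members' changes was not tested. Of 8 hepatocyte markers 3 were higher and 4 lower in fasted AAKO mice, with summed levels of 11.60 to 11.73 in fasted CTRL and 11.66 to 11.75 in fasted AAKO mice.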

How the data were processed

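Liver RNA of 36 mice was measured on 36 single-colour Agilent arrays, 1 mouse each. The deposited scanner files hold, per the file headers, spot intensity from Agilent Feature Extraction; the submitters' processing notes name version 10.10.1.1 and limma. The processed signal in these files is already background-subtracted by that software. The authors' deposited value table holds log2 values of the same arrays, whose scaling is not stated. Its columns had the same median within each group, but the median differed between groups, from 6.88 (CL316243 AAKO) to 7.01 (fasted AAKO). A shift between groups common to all genes can thus remain in that table. Each column matched its own array best, and the table served as an alternative only. Control spots and outlier-flagged spots (0.127%) were left out, spots of a probe averaged, log2 taken and each array's 75th percentile subtracted. Genes were kept with the probe well above background on at least 5 of 6 arrays of 1 group. limma 3.58.1 (R 4.3.3) fitted 6 group means with wash batch, and p-values were adjusted by Benjamini-Hochberg over 24101 genes; the fit was tested on simulated data. Changes are log2 differences, given with SE; group values with SD are over 6 mice. Figures were drawn with matplotlib 3.10.9 and sequences matched with pandas 2.3.3. Alternatives covered background correction, scaling, the dim-probe filter, slide, wash batch, replicate numbers, the authors' table, single probes and leaving out each mouse.

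The members, lists and tests were chosen with earlier results of these data known. Members with values in each group were set by role, plus the 3 highest and 3 lowest called members of each contrast; members named beyond these were chosen after their values were seen. Nothing in the labels says more of the replicates than that they are separate mice. Sequences of probes are those of the scanner files (mm9 positions); promoter windows are from RefSeq (GRCm38.p6), and 53 of 55 members matched RefSeq by accession. Lists not described in the report were lymphocyte, acinar, enterocyte and adipocyte markers: in fasted mice AAKO differed from CTRL, as higher and lower calls, for 0 and 2 of 7, 1 and 1 of 4, 0 and 1 of 2 and 1 and 2 of 7 tested genes, and Ucp1 was above background on no array. Between fasted genotypes 49.3% of all genes were called.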

Additional observations from a re-analysis of the deposited data

Results flagged for a closer look

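Among 108 sets of 6 mice (18 members by 6 groups), single mice stood far from the rest of their group in 10, where chance alone marks about 1 in 20. The sets share mice and correlated members, so the 10 cannot be set against that rate. In the fasted CTRL group, replicate 2 read -0.75 for Cyp2d13 (next 0.98) and 2.65 for Cyp2d37-ps (next 4.16). Replicate 3 of that group read -3.06 for Cyp2c55 (next -2.30) and 4.06 for Cyp2c70 (next 5.43). In the fasted AAKO group, replicate 2 read 6.47 for Cyp2a4 (next 7.62), 7.38 for Cyp2a5 (next 8.26) and -5.70 for Cyp2c53-ps (next -4.60). Cyp2a4 read 7.59 in CL316243 CTRL replicate 6 (next 6.95), Cyp2j9 -0.01 in fed AAKO replicate 6 (next 0.56) and Cyp3a13 4.90 in fed CTRL replicate 6 (next 4.29).

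The genotypes differed in their response, by limma's interaction terms, for these members. For fasting against feeding the difference of changes, AAKO minus CTRL, was 1.52 for Cyp2a4, 1.52 for Cyp2c70, 1.20 for Cyp2a5, -2.35 for Cyp2d37-ps, -2.10 for Cyp2d13 and -0.82 for Cyp2j9. For CL316243 against feeding it was 0.84 for Cyp3a13, -1.34 for Cyp2d37-ps and -1.12 for Cyp2d13. For the genotype difference in fasted mice minus that after CL316243 it was 2.02 for Cyp2a4, 1.75 for Cyp2a5, 1.22 for Cyp2c55, -1.16 for Cyp3a13, -1.01 for Cyp2d37-ps and -0.97 for Cyp2d13.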

How the results depend on the processing

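Counts of called members stayed within 1.5 times their first value in 321 of 336 alternative fits. The exceptions were 1 call in fed mice with slide as a factor, 11 for the difference between fasted and CL316243 genotype differences with quantile normalization, and counts within wash batches, where fewer arrays remain. Batch 1 gave 9 for genotype after CL316243, 4 for CL316243 in CTRL and 10 for the difference of genotype differences. Batch 2 gave 15 for genotype in fasted mice, 1 for genotype after CL316243, 17 for fasting in CTRL, 2 for CL316243 in CTRL, 2 in AAKO, 18 for fasted against CL316243 in CTRL, 25 in AAKO, 3 for the fasting interaction, 0 for the CL316243 interaction and 3 for the difference of genotype differences. The cause of these exceptions was not tested. Of 6633 alternative values of single members, 597 lost their call and 2 changed sign, both Cyp2e1 with fasting in AAKO: 0.0090 with quantile normalization (adjusted p = 0.914) and 0.0085 in the authors' table (adjusted p = 0.915). Leaving out each mouse gave 23 to 28 calls in fasted mice, 18 to 22 after CL316243, 28 to 32 and 29 to 34 for fasting, 8 to 15 and 14 to 26 for CL316243 in CTRL and AAKO. Same-numbered mice of different groups did not deviate together (mean r = 0.00, from -0.30 to 0.36), and the replicate block gave 26 calls in fasted mice, 21 after CL316243, 29 and 32 for fasting in CTRL and AAKO, 12 and 21 for CL316243, 32 and 41 for fasted against CL316243, 14, 4 and 17 for the interactions and 0 in fed mice. In the authors' table the share of higher calls over all genes was 67.9% in fed mice (52.6% here), 42.3% after CL316243 (54.4%) and 58.0% for fasted against CL316243 in AAKO (43.5%, and 31.4% with normexp); for the CL316243 interaction it was 44.2% (58.5%) and for the difference of genotype differences 54.8% (39.1%). Signal near background limits Cyp1a1, Cyp1b1, Cyp2c53-ps, Cyp2c65 and Cyp2c66.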
